A study of Mus musculus with 10 samples.

Results

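The genes described here take fatty acids into the mitochondria, oxidise them and use the products, together with the regulators of these genes and the creatine kinases of muscle. The set holds 38 genes of this pathway, and it was drawn up with earlier results of these data known. Of these, 36 had a probe set that the platform annotation assigns to a single gene, out of 18193 such genes on the arrays; Cpt1b and Acsl1 were not analysed here. Where a gene had several probe sets, the 1 with the highest mean over all 10 arrays stood for it. By role, the measured members were 3 genes of fatty acid uptake, 3 of the carnitine shuttle, 15 of beta oxidation, 5 of the citric acid cycle, 2 pyruvate dehydrogenase kinases, 3 creatine kinases and 5 regulators.

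Long-chain fatty acids are set free from lipoproteins by lipoprotein lipase, taken up with the help of CD36 and carried in the cytosol of heart cells by FABP3, then moved into mitochondria as carnitine esters. Beta oxidation shortens them step by step and passes electrons to the respiratory chain and acetyl units to the citric acid cycle. The adult heart draws most of its energy from this pathway, whereas the fetal heart relies more on glucose and lactate. The coactivators PGC-1 alpha and PGC-1 beta, acting on estrogen-related receptors and PPAR alpha, are the best known activators of these genes in heart muscle.

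All samples came from the mouse ES cell line CGR8 (strain SV129). ES cells of passages 25, 26 and 27 were kept with 1 mM EBIO for 3 days (n = 3) or left untreated (n = 3). Differentiated cells spent 5 days as embryoid bodies and then 10 days with EBIO (n = 2; no dose is given for them) or without it (n = 2). EBIO acts on potassium channels that calcium opens, and the series was made to follow the formation of heart cells under it. The samples of a group are labelled as independent experiments on this 1 cell line, and the embryoid body cultures are mixtures of cell types, in which fewer cells of a type and less RNA per cell cannot be told apart.

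Values are log2 RMA values, so a difference of 1 is a doubling. Array medians were 4.52 to 4.55 in EBIO-treated ES cells, 4.55 to 4.62 in untreated ES cells, 5.59 to 5.62 in EBIO-treated differentiated cells and 5.66 to 5.68 in untreated ones. The ES and the differentiated arrays had been normalized apart, so levels are compared within a stage only. A gene that lay under the array medians is called dim, since RMA compresses differences there. All 8 pluripotency markers were above the array medians in untreated ES cells, and with EBIO 6 were, with Pou5f1 at 7.68 ± 0.34 against 11.88 ± 0.02 (SD, n = 3 each). In differentiated cells all 12 cardiomyocyte markers were above the medians in both groups and all 12 were higher with EBIO. The untreated array of passage 27 correlated least with its replicates (0.982 and 0.988). In ES cells the Actb 3' minus 5' difference, a sign of RNA integrity, was 0.14 ± 0.06 with EBIO and 0.42 ± 0.09 without. For Gapdh the same difference was 0.02 ± 0.02 with EBIO and -0.01 ± 0.07 without. The part of RNA integrity in the results was not tested, and calls that change without the arrays of passage 27 are given beside the genes.

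Promoter sequence, from the RefSeq table for build GRCm38.p6, was at hand for 32 of the 36 measured members as windows from 250 bases before to 50 after a transcription start. Estrogen-related receptors bind the core AAGGTCA. Searched on both strands, these letters occurred in the windows of 2 of the 32 members, Acadm and Ogdh, and in 5.38% of all 27025 genes of the table. The longer form TNAAGGTCA, which contains the core, and the PPAR alpha element of AGGTCA repeated after 1 base of any kind, which can overlap it, occurred in none of the 32, and in 1.43% and 0.0481% of all genes. A match is only a description of the letters in this window. The Acadm and Ogdh windows are shown because they hold the core, which is in capitals and reads on the strand opposite to the gene in both, at position -249 in Acadm and at -5 in Ogdh, counted from the base at the start as 1 with no 0. The Hadhb window is shown because Hadha and Hadhb, whose products form a single enzyme complex, start 273 bases apart on opposite strands. Its capitals are the 228 bases that also lie in the Hadha window. The windows are chr3:153944594-153944893 on the minus strand for Acadm, chr11:6291920-6292219 on the plus strand for Ogdh (1 of its 6 windows) and chr5:30155003-30155302 on the plus strand for Hadhb.
Acadm: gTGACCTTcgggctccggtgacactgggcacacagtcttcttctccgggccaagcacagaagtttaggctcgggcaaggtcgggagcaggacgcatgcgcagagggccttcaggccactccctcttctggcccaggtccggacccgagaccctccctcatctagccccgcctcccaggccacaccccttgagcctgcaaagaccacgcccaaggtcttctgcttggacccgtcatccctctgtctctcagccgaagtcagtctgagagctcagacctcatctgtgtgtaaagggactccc
Ogdh: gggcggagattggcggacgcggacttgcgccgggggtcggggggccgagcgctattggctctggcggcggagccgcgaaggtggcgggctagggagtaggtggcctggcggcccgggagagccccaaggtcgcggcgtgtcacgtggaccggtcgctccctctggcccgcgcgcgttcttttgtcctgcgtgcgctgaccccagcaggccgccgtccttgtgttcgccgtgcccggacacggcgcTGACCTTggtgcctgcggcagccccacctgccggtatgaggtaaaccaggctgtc
Hadhb: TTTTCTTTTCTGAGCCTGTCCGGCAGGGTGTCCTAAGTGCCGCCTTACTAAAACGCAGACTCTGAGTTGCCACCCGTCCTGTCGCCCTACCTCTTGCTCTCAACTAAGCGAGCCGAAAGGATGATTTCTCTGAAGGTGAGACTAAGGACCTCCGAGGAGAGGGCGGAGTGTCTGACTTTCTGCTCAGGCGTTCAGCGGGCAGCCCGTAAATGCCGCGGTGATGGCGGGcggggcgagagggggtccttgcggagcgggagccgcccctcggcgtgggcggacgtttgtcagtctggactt

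In differentiated cells, the question was how these genes stood after 10 days with EBIO. All 4 regulators of the set bright enough to be tested rose, as did all 5 citric acid cycle members. Of 15 beta oxidation members 9 rose. The uptake genes Cd36 and Lpl, the carnitine shuttle genes Cpt1a and Slc25a20 and the creatine kinase gene Ckb fell. Among 11 tested regulators of mitochondrial genes outside the set, 2 rose and 2 fell (18.2% each). Of 34 members tested, 20 rose and 9 fell (limma, adjusted p under 0.05), against 33.3% of all 12330 genes tested that rose and 32.6% that fell. The median difference was 0.38 over the members tested and 0.02 over all genes tested. Ppara and Ckmt2 were dim on every array and were not tested. Beside these changes, the 12 cardiomyocyte markers summed, on the linear scale, to 101152 to 103678 with EBIO and 10319 to 11852 without, and the 8 fibroblast markers to 4050 to 4360 with EBIO and 57339 to 59357 without; their part in the results was not tested. Thus 58.8% of the members tested rose and 26.5% fell; these shares were not tested against those of all genes.

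Esrrg, the gene of estrogen-related receptor gamma, measured 9.26 and 9.52 in EBIO-treated cells, against 6.76 and 6.37 in untreated cells. It rose by 2.82 ± 0.15 (SE, adjusted p = 3.5e-05, limma), a 7.08-fold difference and the largest among the members. Its other 2 probe sets were dim, and with all 3 averaged it did not pass the filter. Ppargc1a, which encodes PGC-1 alpha, measured 8.31 and 8.42 with EBIO and 5.99 and 5.38 without. Since untreated levels lay around the array median, its rise of 2.68 ± 0.20 (adjusted p = 0.00011) may be understated. The gene had 5 probe sets, and all of them were higher with EBIO, by 2.27 to 3.08. Ppargc1b, the gene of PGC-1 beta, measured 9.30 and 9.28 with EBIO and 7.75 and 7.77 without, a rise of 1.54 ± 0.07 (adjusted p = 1.6e-05). Esrra, which encodes estrogen-related receptor alpha, measured 9.12 and 9.05 with EBIO and 8.33 on both untreated arrays, a rise of 0.75 ± 0.07 (adjusted p = 0.00027). The groups did not overlap in any of these 4 genes, which with 2 arrays in each group says little by itself. The share of all genes without overlap was not counted. Ppara was at 5.30 and 5.18 with EBIO and at 4.94 and 4.67 without, below the array medians throughout, so its level was not resolved.

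The citric acid cycle members rose together. Ogdh, a subunit gene of the 2-oxoglutarate dehydrogenase complex, measured 10.80 and 10.84 with EBIO and 9.61 and 9.23 without, a rise of 1.40 ± 0.13 (adjusted p = 0.00027); its dimmer probe set was higher by 0.46, and the mean of both by 0.93. Cs, the gene of citrate synthase, measured 12.56 and 12.62 with EBIO and 11.84 and 11.74 without, a rise of 0.80 ± 0.07 (adjusted p = 0.00026), and its 3 probe sets were higher by 0.73 to 0.81. Fh1, the fumarase gene, and Mdh2, the gene of mitochondrial malate dehydrogenase, rose by 0.47 and 0.37. Idh2, the gene of the NADP-dependent mitochondrial isocitrate dehydrogenase, had the smallest rise (0.25 ± 0.08, adjusted p = 0.033). That call was lost without untreated array 1 (0.27, adjusted p = 0.0791), without untreated array 2 (0.24, adjusted p = 0.102) and without EBIO array 2 (0.18, adjusted p = 0.179), and the mean of its 2 probe sets differed by 0.08 (adjusted p = 0.435).

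Beta oxidation genes split. The 4 acyl-CoA dehydrogenases, which start the cycle on chains of different length, all rose: Acadl by 0.70, Acadm by 0.43, Acadvl by 0.43 and Acads by 0.32 (adjusted p between 0.00048 and 0.012). Without EBIO array 1 Acads differed by 0.26 (adjusted p = 0.0694). Hadha and Hadhb, the subunits of the trifunctional protein that carries out the later steps on long chains, rose together. Hadha measured 10.50 and 10.48 with EBIO and 9.59 and 9.68 without, a rise of 0.86 ± 0.07 (adjusted p = 0.00018). Hadhb measured 11.37 and 11.45 with EBIO and 10.74 and 10.80 without, a rise of 0.64 ± 0.07 (adjusted p = 0.00059). These are the 2 genes with the shared promoter window shown above. Hadh, the dehydrogenase of short and medium chains, rose by 0.39 (adjusted p = 0.0034).

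Of the 15 beta oxidation members 4 fell (26.7%), a share below the 32.6% of all genes tested that fell. The 9 that rose were 60%, beside 33.3% of all genes. Echs1, the gene of short-chain enoyl-CoA hydratase, measured 10.17 on both EBIO arrays and 11.02 and 11.19 on the untreated ones, a fall of 0.94 on the log2 scale (SE 0.08, adjusted p = 0.00022). Eci2 and Decr1, an isomerase and a reductase needed for unsaturated fatty acids, fell by 0.73 and 0.68 (adjusted p = 0.00032 and 0.00043). For Decr1 a dimmer second probe set differed the other way, at 7.38 with EBIO and 7.12 without, and the mean of both was lower by 0.21 in size (adjusted p = 0.0453). The electron transfer flavoprotein is a pair of subunits, and their genes moved apart. Etfa measured 11.51 and 11.55 with EBIO and 10.92 and 11.09 without, a rise of 0.53 ± 0.08 (adjusted p = 0.0026). Etfb measured 10.69 and 10.80 with EBIO and 11.17 and 11.21 without, and it fell by 0.44 (SE 0.07, adjusted p = 0.003). Etfdh, the gene of the dehydrogenase that takes electrons from this flavoprotein to ubiquinone, rose by 0.72 (adjusted p = 0.0003), or by 0.35 with its probe sets averaged. Eci1, a second isomerase, and Acaa2, a thiolase, were not called, at 0.12 and -0.11 (95% intervals -0.10 to 0.34 and -0.27 to 0.06).

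Of the carnitine shuttle genes 2 of 3 fell and none rose, beside 32.6% and 33.3% of all genes tested. The muscle form Cpt1b is the one not analysed here. Cpt1a, the liver form of the enzyme that makes acylcarnitine and the rate-limiting step of the pathway, measured 9.21 and 9.34 with EBIO and 10.06 and 10.08 without, and fell by 0.80 (SE 0.08, adjusted p = 0.00032). All 3 of its probe sets were lower, by 0.62 to 0.80 in size. Slc25a20, the carrier of the inner membrane, measured 9.95 and 10.04 with EBIO and 10.29 and 10.28 without, and fell by 0.28 (SE 0.07, adjusted p = 0.015). Its call was lost without untreated array 1 (adjusted p = 0.0503) and without EBIO array 1 (-0.24, adjusted p = 0.0859). Cpt2, which regenerates acyl-CoA inside, differed by 0.05 (adjusted p = 0.58, 95% interval -0.13 to 0.23). The 7 hepatocyte and visceral endoderm markers summed to 272 to 283 with EBIO and 4550 to 6357 without, and all 6 that were tested fell. Of these, Afp, Alb, Apoa2 and Fgb were dim with EBIO. They passed the filter through the untreated arrays alone, so they could only be called lower. Afp averaged 4.54 with EBIO and 11.43 without. Apob, dim in both groups and not tested, averaged 4.99 and 4.92. The part of these markers in the fall of Cpt1a, the liver form, was not tested.

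Uptake genes moved in opposite directions. Fabp3, the heart fatty acid binding protein, measured 10.69 and 10.72 with EBIO and 10.13 and 10.17 without, a rise of 0.56 ± 0.07 (adjusted p = 0.00085). Its much dimmer second probe set differed by 0.07 and overlapped between the groups, the mean of both rose by 0.31 (adjusted p = 0.00993), and in the fit of all 10 arrays the 0.56 was not called (adjusted p = 0.0521). Cd36 measured 6.30 and 6.47 with EBIO and 8.43 and 8.6 without, and fell by 2.13 (SE 0.10, adjusted p = 2.1e-05), a 4.37-fold difference. Of its 3 probe sets this one fell most. One that was brighter in differentiated cells (means 7.28 with EBIO and 9.04 without) fell by 1.75 and a dim one by 1.13. The mean of all 3 fell by 1.67 (adjusted p = 5.84e-05). Lpl, the gene of lipoprotein lipase, measured 11.87 and 11.86 with EBIO and 12.88 and 12.83 without, and fell by 0.99 (SE 0.07, adjusted p = 8.4e-05). Macrophages and endothelial or fat cells express Cd36 and Lpl too. The 10 macrophage markers summed, on the linear scale, to 292 to 301 with EBIO and 20779 to 25346 without, and 9 of the 10 were dim with EBIO. The 8 endothelial markers summed to 459 to 461 with EBIO and 1663 to 1691 without. The 6 measured fat cell markers summed to 116 to 121 with EBIO and 1143 to 1282 without. Of these, Fabp4 fell (3.94 ± 0.19 with EBIO and 10.12 ± 0.13 without, SD, n = 2 each), Retn was at 5.69 with EBIO and 5.70 without (means), and Adipoq, Cidec, Lep and Ucp1 were dim in both groups. What part these shifts have in Cd36 and Lpl was not tested.

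No creatine kinase gene was called higher. Ckm, the muscle form, measured 6.36 and 6.29 with EBIO and 6.37 and 6.41 without, a difference of -0.06 (adjusted p = 0.45, 95% interval -0.24 to 0.11) that is 0.01 with the mean of its probe sets. Ckmt2, the mitochondrial form of striated muscle, was at 2.94 and 3.09 with EBIO and 2.87 on both untreated arrays, far below the medians. Ckb, the brain form, measured 10.09 and 10.01 with EBIO and 10.94 and 11.15 without, and fell by 0.99 (SE 0.09, adjusted p = 0.0003). Of 10 skeletal muscle markers 8 were dim with EBIO and 7 without. Of the 3 tested, Acta1 and Mylpf rose by 1.26 and 1.05, and Tnni2, dim with EBIO, fell by 0.86. Among the pyruvate dehydrogenase kinases, which hold back glucose oxidation, Pdk2 rose by 0.83 ± 0.09 (adjusted p = 0.00046), with 7.47 and 7.66 against 6.72 and 6.76. Pdk4, a classical target of PPAR alpha, measured 7.93 and 8.13 with EBIO and 8.0 and 8.02 without (0.02, adjusted p = 0.83, 95% interval -0.20 to 0.25).

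**Figure D1:**
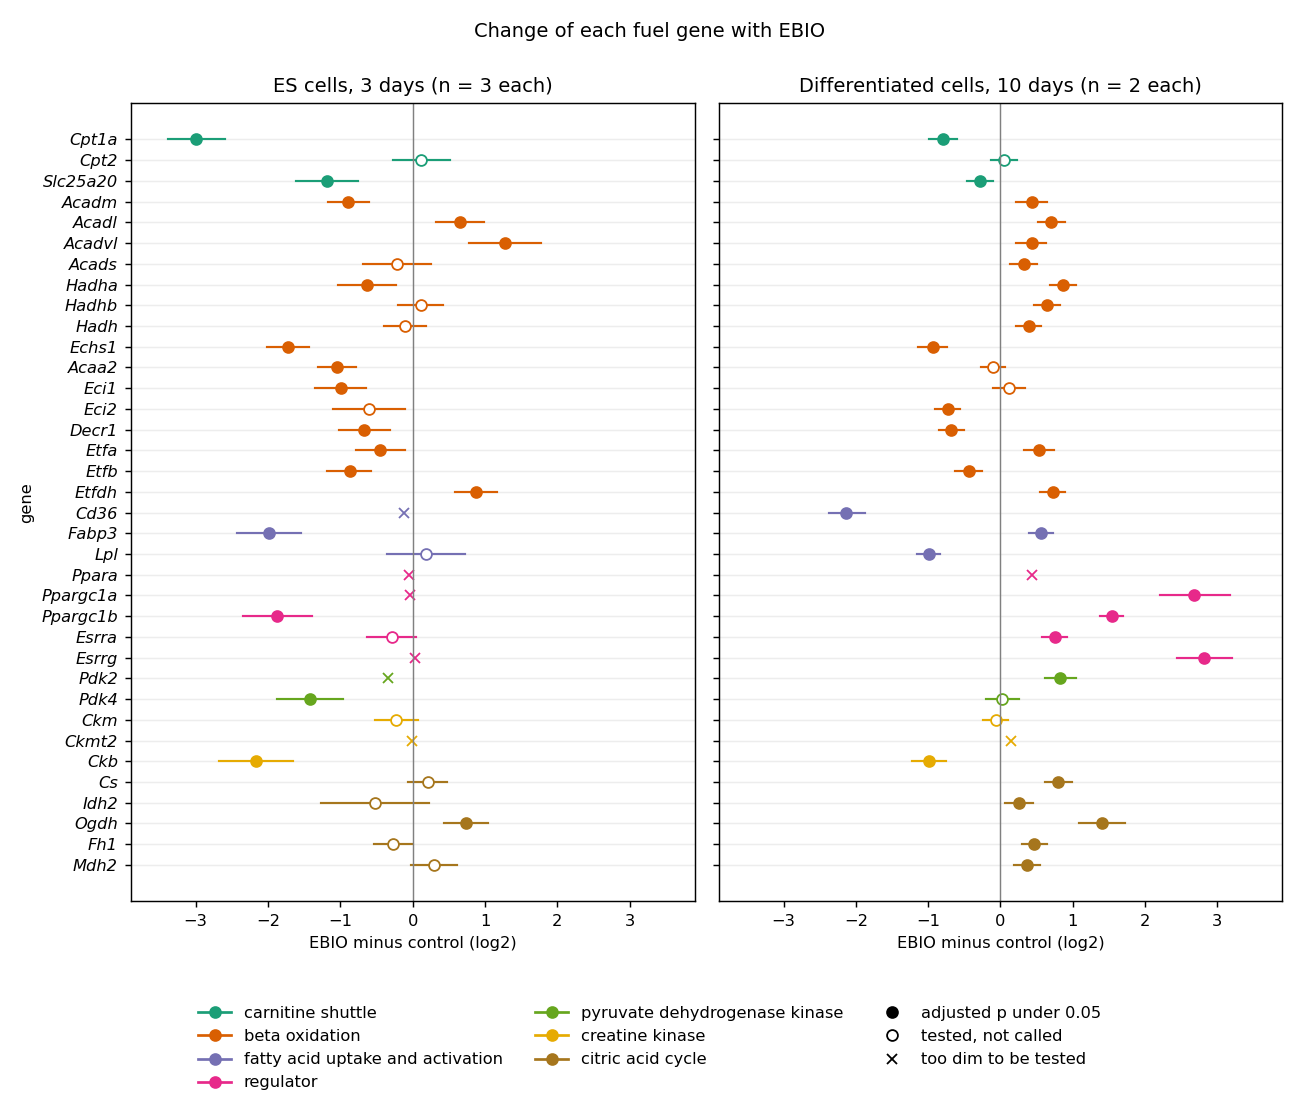
EBIO minus control (log2, x axis) for each of the 36 measured genes (y axis, coloured by role), in ES cells (left, n = 3 each) and differentiated cells (right, n = 2 each). Bars are 95% intervals from limma; filled points passed an adjusted p of 0.05, open points did not, and crosses mark genes too dim to be tested. In differentiated cells 20 genes lie to the right and 9 to the left past the threshold, in ES cells 4 and 14.

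The second comparison asked what 3 days of EBIO did in ES cells. Here falls prevailed: Cpt1a, Ckb, Fabp3, Ppargc1b and Echs1 led them, and Acadvl, Etfdh, Ogdh and Acadl rose. Of 30 members tested 4 rose and 14 fell (limma, adjusted p under 0.05), against 23.5% of all 12096 genes tested that rose and 21.2% that fell. The median difference was -0.48 over the members tested and -0.04 over all genes tested. Beside these changes the 8 pluripotency markers summed to 1771 to 2152 with EBIO and 28778 to 31230 without, and their part in the results was not tested. Cd36, Ppara, Ppargc1a, Esrrg and Ckmt2 were dim in both groups, and Pdk2 too, so 6 members were not tested. Ppargc1b and Pdk4 passed the filter through the untreated arrays alone and are dim with EBIO, so that a gene could pass in this way only if it was lower with EBIO, and their falls may be understated.

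Cpt1a measured 5.76, 5.73 and 5.82 with EBIO and 9.04, 8.84 and 8.39 without. It fell by 2.99 (SE 0.17, adjusted p = 4.3e-06), a 7.94-fold difference, and its 3 probe sets were lower by 2.56 to 3.69 in size. Slc25a20 fell by 1.19 (SE 0.19, adjusted p = 0.0011), with 8.06, 7.43 and 7.90 against 8.73, 9.14 and 9.08. Cpt2 differed by 0.12 (adjusted p = 0.61) and by -0.07 without the untreated array of passage 27. Cpt1a and Slc25a20 thus were called lower at both stages. Fabp3 measured 9.82, 10.06 and 9.62 with EBIO and 12.11, 11.91 and 11.43 without, and fell by 1.99 (SE 0.20, adjusted p = 7.4e-05). Its much dimmer second probe set differed by -0.09, and the mean of both fell by 1.04 (adjusted p = 0.000329). Lpl overlapped between the groups, at 8.46, 7.88 and 8.53 with EBIO and 8.52, 7.76 and 8.04 without (0.18, adjusted p = 0.56).

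Among beta oxidation members 8 of 15 fell and 3 rose (53.3% and 20%), beside 21.2% and 23.5% of all genes tested. The share of rises was thus near that of all genes. Echs1 measured 7.88, 7.82 and 7.75 with EBIO and 9.54, 9.68 and 9.38 without, and fell by 1.72 (SE 0.13, adjusted p = 1.6e-05). Acaa2 fell by 1.04, Eci1 by 0.99, Acadm by 0.89, Etfb by 0.87 and Decr1 by 0.67 (adjusted p between 0.00013 and 0.0076). Hadha fell by 0.63 (SE 0.18, adjusted p = 0.018), whereas Hadhb, which shares its promoter window, overlapped between the groups (0.11, adjusted p = 0.56, 95% interval -0.20 to 0.42) and had probe sets of both signs. The Hadha call was lost without untreated array 1 (adjusted p = 0.057), untreated array 2 (adjusted p = 0.0725) or EBIO array 2 (adjusted p = 0.0684). Etfa fell by 0.45 (adjusted p = 0.042), a call lost without untreated array 1 (adjusted p = 0.0636), untreated array 2 (0.14), EBIO array 1 (0.14), EBIO array 2 (0.0709) or EBIO array 3 (0.0846), and kept without untreated array 3. Eci2 differed by -0.60 (adjusted p = 0.052). With the passages paired as a replicate block, Eci2 was called lower (adjusted p = 0.0018).

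The 3 that rose are the dehydrogenases of long and very long chains and the one that takes electrons from the electron transfer flavoprotein. The genes of that flavoprotein, Etfa and Etfb, fell (-0.45 and -0.87). Acadvl measured 8.83, 8.28 and 8.41 with EBIO and 7.35, 7.54 and 6.81 without, a rise of 1.28 ± 0.22 (adjusted p = 0.0015). Etfdh measured 8.66, 8.44 and 8.41 with EBIO and 7.56, 7.75 and 7.59 without, a rise of 0.87 ± 0.13 (adjusted p = 0.00067). Acadl rose by 0.66 ± 0.15 (adjusted p = 0.006). With probe sets averaged, a dim one of each included, these rises were 0.48 for Etfdh and 0.36 for Acadl. All 3 rose in differentiated cells too. Acads and Hadh were not called (-0.21 and -0.11, adjusted p = 0.45 and 0.51).

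Of the citric acid cycle members Ogdh rose, by 0.74 ± 0.13 (adjusted p = 0.0018), with 8.81, 8.90 and 8.82 against 8.22, 8.18 and 7.90. The other 4 were not called: Mdh2 at 0.30, Cs at 0.21, Fh1 at -0.27 and Idh2 at -0.52 (adjusted p = 0.12, 0.18, 0.088 and 0.23). The 3 probe sets of Cs did not share a sign (-0.30 to 0.30). Idh2 varied with passage, at 9.59, 9.46 and 8.80 with EBIO and 10.31, 10.05 and 9.07 without. With the passages as a replicate block it was called lower (adjusted p = 0.0084), as it was without the untreated array of passage 27 (-0.89, adjusted p = 0.0103). Without that array Mdh2 was called higher (0.41, adjusted p = 0.0345). With probe sets averaged, Mdh2 was called higher (0.31, adjusted p = 0.0396) and Idh2 lower (adjusted p = 0.019). Fh1 has only 1 probe set, so its value of -0.27 stayed the same. It was nevertheless called lower in that fit of 11172 genes (adjusted p = 0.0471), and also in the fit of all 10 arrays (adjusted p = 0.0297).

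Ckb measured 9.07, 8.74 and 9.40 with EBIO and 11.22, 11.61 and 10.89 without. It fell by 2.17 (SE 0.22, adjusted p = 9.1e-05), a 4.50-fold difference. Ckm overlapped between the groups (-0.23, adjusted p = 0.19). Ppargc1b measured 4.07, 4.21 and 4.15 with EBIO and 5.87, 5.65 and 6.50 without, and fell by 1.87 (adjusted p = 0.00015), and Pdk4 fell by 1.42 (adjusted p = 0.00055). Esrra did not overlap between the groups but was not called (-0.29, adjusted p = 0.15). Pdk2 was at 3.79, 3.77 and 3.93 with EBIO and 4.32, 4.18 and 4.03 without, under the medians.

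**Figure D2:**
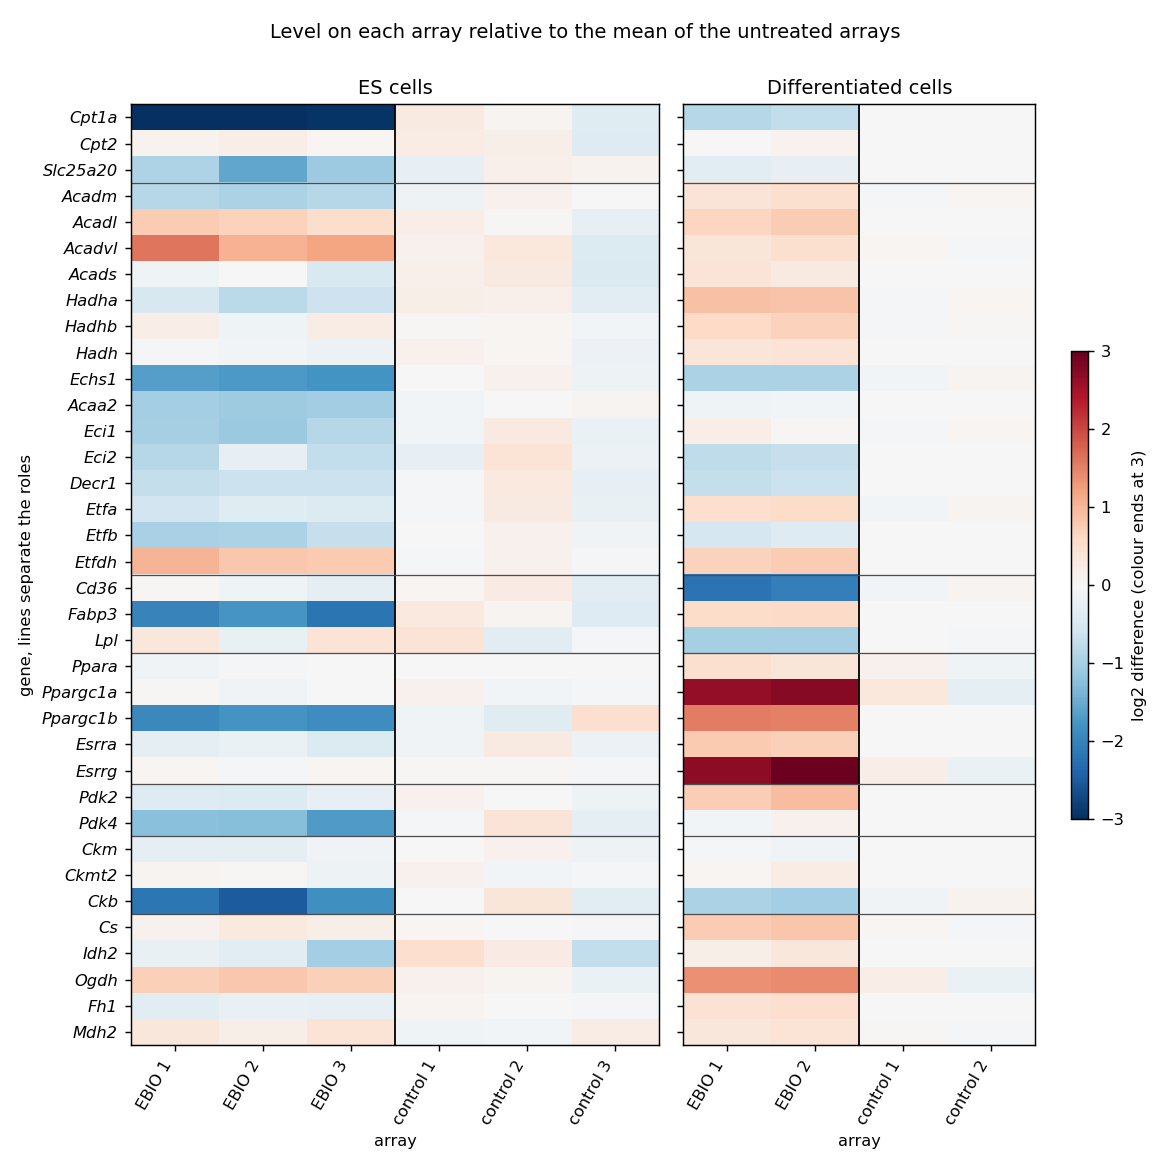
Colour gives the log2 value of each measured gene (rows, grouped by role) on each array (columns, EBIO left of control) minus the mean of the untreated arrays of the same stage, with the scale ending at 3. The replicate arrays of a group look alike for most genes, and Idh2 in ES cells is an exception, with values of 8.80 and 9.07 on the arrays of passage 27 with and without EBIO.

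**Figure D3:**
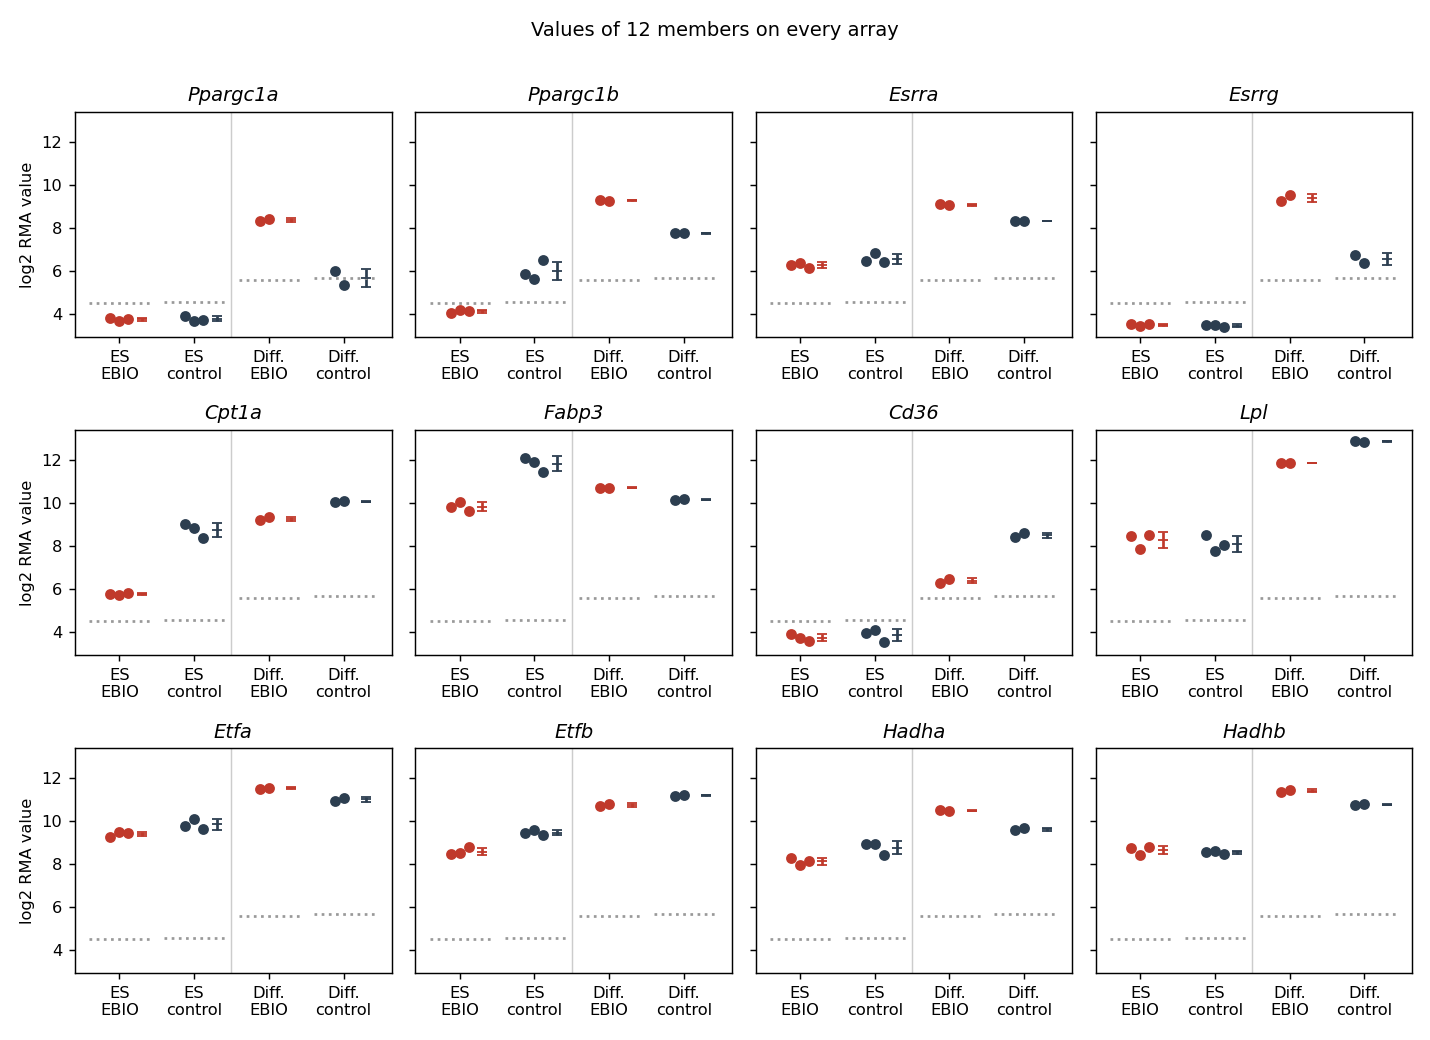
Log2 RMA value (y axis) of 12 genes on every array, with EBIO in red and control in dark blue; the bar beside the points is the mean ± SD (n = 3 in ES and 2 in differentiated groups), and the dotted line is the mean of the array medians of that group. Ppargc1a, Esrrg and Cd36 lie under the line in ES cells, and in differentiated cells Etfa is higher with EBIO (means 11.53 and 11.01) and Etfb lower (means 10.75 and 11.19).

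The third comparison set the EBIO effect in differentiated cells against that in ES cells, as an interaction in a fit of all 10 arrays, in which a constant shift between the sets cancels. Of 34 members tested, 21 had a higher and 3 a lower effect in differentiated cells (limma, adjusted p under 0.05), against 20.5% and 25% of all 13706 genes tested. The median difference of effects was 0.76 over the members and 0.04 over all genes. Ppargc1b rose in differentiated cells and fell in ES cells, with a difference of 3.40 ± 0.29 (adjusted p = 3.3e-06). It was dim in EBIO-treated ES cells and passed the filter there through the untreated arrays alone, as did Pdk4 (1.44 ± 0.28), so the size of either difference is not resolved. Fabp3 (2.54 ± 0.27, or 1.35 with its probe sets averaged), Acadm (1.32 ± 0.17), Hadha (1.49 ± 0.24) and Etfa (0.97 ± 0.21) also were called in both directions, higher in differentiated and lower in ES cells, although the rise of Fabp3 in differentiated cells was not called in this 10-array fit (adjusted p = 0.0521). For Cpt1a (2.19 ± 0.23), Ckb (1.18 ± 0.31), Echs1 (0.78 ± 0.17) and Slc25a20 (0.90 ± 0.26) the fall was larger in ES cells. Ppargc1a, Esrrg, Pdk2 and Cd36 were dim in ES cells, so their differences (2.71, 2.79, 1.17 and -2.0) rest on the differentiated arrays.

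For 10 tested members the effects were not called different. Among them Acadl (0.04 ± 0.20), Decr1 (-0.01 ± 0.21), Etfdh (-0.15 ± 0.16) and Eci2 (-0.13 ± 0.30) lay closest to no difference together with Cpt2 and Mdh2. The sign of the Decr1 value changed with the mean of its probe sets (0.33). Acads and Idh2 were called higher in differentiated cells with the replicate block (0.53, adjusted p = 0.02, and 0.78, adjusted p = 0.0053), and also without the untreated ES array of passage 27 (0.75, adjusted p = 0.00931, and 1.15, adjusted p = 0.00784). Etfb was called without that array (0.49, adjusted p = 0.0381) and without the EBIO-treated ES array of passage 27 (0.52, adjusted p = 0.0276).

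In the interaction, leaving out a differentiated array left 1 array in its group. The value of Hadhb was then 0.50 to 0.58 (0.54 with all arrays), and that of Hadh 0.48 to 0.53 (0.51 with all arrays). Several calls of the interaction were lost when 1 array was left out. Leaving out any 1 of the 4 differentiated arrays ended those of Acadvl (adjusted p = 0.0796 to 0.127), Hadhb (0.0669 to 0.107) and Hadh (0.0666 to 0.0925), and so did leaving out EBIO-treated ES array 1 for Acadvl (0.081), untreated ES array 2 for Hadhb (0.0565) and EBIO-treated ES array 3 for Hadh (0.052). Slc25a20 lost its call without untreated differentiated array 1 (0.0513) or 2 (0.0546) or EBIO-treated array 2 (0.0597). Ogdh lost its call without untreated differentiated array 2 (0.11) or EBIO-treated array 1 (0.0532) or 2 (0.0664), and with the mean of its probe sets (0.30, adjusted p = 0.207). Ckb lost its call without untreated differentiated array 1 (1.07, adjusted p = 0.05).

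**Figure D4:**
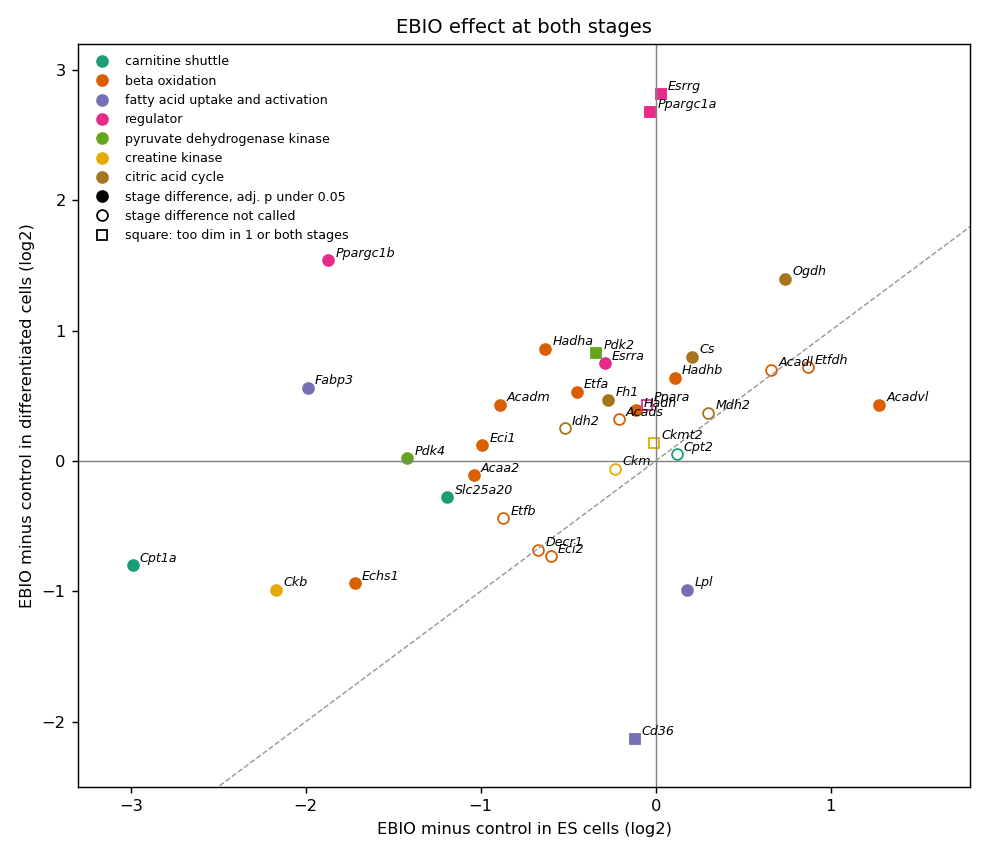
EBIO minus control (log2) in ES cells (x axis) against that in differentiated cells (y axis), 1 point for each of the 36 measured genes, coloured by role. Filled symbols are genes whose effects differ at an adjusted p of 0.05, squares are genes too dim to be tested in at least 1 stage, and the dashed line marks equal effects; Ppargc1b (-1.87 and 1.54) and Fabp3 (-1.99 and 0.56) lie far above it, Acadvl (1.28 and 0.43) below it.

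The rest of the pathway was examined with 96 further genes, of which 89 had a probe set of their own. In differentiated cells 36 of the 81 tested rose and 24 fell (44.4% and 29.6%, median 0.17), beside 33.3% and 32.6% of all genes, so that the share of falls was near that of all genes. In ES cells 11 of 81 rose and 35 fell (13.6% and 43.2%, median -0.31), beside 23.5% and 21.2% of all genes. The other citric acid cycle and pyruvate dehydrogenase genes had 17 of 21 higher and 2 lower with EBIO in differentiated cells (81% and 9.52%, beside 33.3% and 32.6% of all genes). In ES cells 1 of the 21 was higher and 11 were lower (4.76% and 52.4%, beside 23.5% and 21.2%). The pyruvate dehydrogenase subunit genes Pdha1 and Pdhb (0.63 and 0.82) and the 4 succinate dehydrogenase genes (0.23 to 0.55) were among those that rose in differentiated cells, and Suclg2, a succinate-CoA ligase subunit gene, fell by 1.74; they were singled out after their values were seen. Of the other mitochondrial beta oxidation genes 3 of 10 rose and 3 fell in differentiated cells, shares near those of all genes. In ES cells 1 of these rose and 6 fell (10% and 60%). Among 11 other regulators of mitochondrial genes 2 rose and 2 fell in differentiated cells (18.2% each, median -0.01), both below the shares of all genes. For ES cells 1 of 12 such regulators rose and 6 fell (8.33% and 50%). Peroxisomal beta oxidation genes had 1 of 7 higher and 3 lower in differentiated cells (14.3% and 42.9%), and 1 of 7 lower in ES cells (14.3%). Of further genes of fatty acid uptake and activation 5 of 13 rose and 6 fell in differentiated cells (38.5% and 46.2%, beside 33.3% and 32.6% of all genes). The largest falls were those of Fabp4 (-6.18 ± 0.12, ending dim at 3.94), Acsl5 (-2.74 ± 0.19) and Fabp5 (-2.44 ± 0.08). Acacb had the largest rise (1.78 ± 0.13). Fabp4 and Fabp5 encode binding proteins that fat cells and macrophages carry in large amount, Acsl5 an acyl-CoA synthetase, and Acacb the carboxylase whose product inhibits CPT1. In ES cells 4 of 13 further genes of uptake and activation rose and 4 fell (30.8% each, beside 23.5% and 21.2% of all genes). The acyl-CoA synthetase gene Acsl3 (2.38 ± 0.23) and the transporter gene Slc27a4 (1.44 ± 0.15) led the rises.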

How the data were processed

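RNA of 10 samples was labelled by the one-cycle method and hybridised to Affymetrix arrays. The deposited log2 values come from RMA, which the submitters' processing notes name; its version and settings were not given in the sources used here. The mean quantile difference between arrays was at most 0.0931 within a stage and at least 0.910 between stages, so the sets had been normalized apart. Of 45101 probe sets 34958 had a single gene symbol, 932 had several and 9211 had none; symbols were updated through a RefSeq gene table, and 64 control probe sets were left out.

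The filter kept genes above the median (50th percentile) of the array on at least 3 ES arrays, 2 differentiated arrays or, for the interaction, 2 arrays. Linear models were fitted with limma (version 3.58.1, R 4.3.3), with moderated statistics, Benjamini-Hochberg adjustment over all genes kept and a threshold of 0.05; the code was checked on simulated data. All members are named whatever their result. Of the other pathway genes, the rule was to name the 4 largest called changes in each direction per stage without overlap of the groups. Pdha1, Pdhb, Suclg2 and the succinate dehydrogenase genes were named outside this rule, after their values were seen. The members and lists were chosen with earlier results of these data known. Same-numbered ES arrays share a passage, and their deviations from group means correlated at 0.329, 0.225 and 0.604; this pairing was run as a replicate block. Alternatives were averaging all probe sets of a gene, other filters, renewed quantile normalization, the block, a fit of all groups and leaving out arrays. The number of arrays limits the precision.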

Additional observations from a re-analysis of the deposited data

Results flagged for a closer look

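The EBIO effect differed between the stages for 24 members by the interaction test described above (limma, adjusted p under 0.05). Values are the effect in differentiated cells minus that in ES cells on the log2 scale. It was higher in differentiated cells for the regulators Ppargc1b (3.40), Esrrg (2.79), Ppargc1a (2.71) and Esrra (1.04), and for Pdk4 (1.44) and Pdk2 (1.17). Among uptake and shuttle genes it was higher for Fabp3 (2.54), Cpt1a (2.19) and Slc25a20 (0.90), and lower for Cd36 (-2.0) and Lpl (-1.18). Among beta oxidation genes it was higher for Hadha (1.49), Acadm (1.32), Eci1 (1.12), Etfa (0.97), Acaa2 (0.94), Echs1 (0.78), Hadhb (0.54) and Hadh (0.51), and lower for Acadvl (-0.85). The remaining values are those of Ckb (1.18), Fh1 (0.74), Ogdh (0.66) and Cs (0.60), all higher in differentiated cells. Esrrg, Ppargc1a, Pdk2 and Cd36 were dim in ES cells, and Ppargc1b and Pdk4 were dim in EBIO-treated ES cells.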

How the results depend on the processing

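The counts of called members stayed within 1.5 times of those reported under all alternatives run. Leaving out 1 array gave 4 to 5 rises and 10 to 14 falls in ES cells, 19 rises and 8 to 9 falls in differentiated cells, and 17 to 24 higher and 2 to 3 lower effects in the interaction. The replicate block by passage gave 4 rises and 16 falls in ES cells and 23 higher and 3 lower effects in the interaction. The numbers of the differentiated arrays were not shown to pair them (correlation of deviations -0.114): their block gave 19 rises and 9 falls, and crossed numbers, chosen after seeing the data, 20 and 9. A fit of all 10 arrays gave 15 rises and 8 falls in differentiated cells, without the calls of Slc25a20 (-0.28, adjusted p = 0.3), Acadvl (0.43, 0.177), Acads (0.32, 0.276), Fabp3 (0.56, 0.0521), Idh2 (0.25, 0.62) and Mdh2 (0.37, 0.0616); the cause was not tested. Over all genes that fit called 2576 rises, against 4110 reported, and the filter at the 75th percentile called 2526 falls, against 4022, with fewer genes tested (7647). Members that were not called changed sign as follows, and the cause was not tested. Without both arrays of passage 27 (chosen after seeing the data) Cpt2 differed by -0.04 in ES cells, and by 0.09 in the interaction, where Decr1 gave 0.12. With probe sets averaged, Ckm gave 0.01 in differentiated cells and Decr1 0.33 in the interaction. With renewed quantile normalization Ckm gave 0.04 in differentiated cells, and Cpt2 0.01 and Etfdh 0.03 in the interaction. Leaving out 1 array, Cpt2 ranged over -0.07 to 0.23 in ES cells and 0.0 to 0.1 in differentiated cells, and Pdk4 over -0.08 to 0.13 there. In the interaction Cpt2 ranged over -0.18 to 0.12, Acadl over -0.05 to 0.16, Eci2 over -0.33 to 0.05, Decr1 over -0.16 to 0.11 and Mdh2 over -0.04 to 0.14. With 2 differentiated arrays in each group and 1 cell line, p-values measure only the spread between these cultures.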

Other observations

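Among genes of glucose use, part of the wider pathway, 7 of 11 rose and 4 fell in differentiated cells (63.6% and 36.4%, beside 33.3% and 32.6% of all genes), so that the share of falls was near that of all genes. Pgam2, the muscle phosphoglycerate mutase gene, measured 12.25 ± 0.03 with EBIO and 9.46 ± 0.15 without (SD, n = 2 each, a rise of 2.79 ± 0.09 SE, adjusted p = 6.8e-06, limma). Hk1, a hexokinase gene, rose by 1.68 ± 0.07 and Eno3, the muscle enolase gene, by 1.61 ± 0.09. In ES cells 3 of 10 rose and 2 fell, shares near the 23.5% and 21.2% of all genes, with the glucose transporter gene Slc2a1 at 13.23 ± 0.07 with EBIO and 11.11 ± 0.05 without (SD, n = 3 each).

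Oxct1, which encodes the enzyme that lets cells burn ketone bodies, measured 7.75 ± 0.02 with EBIO and 9.99 ± 0.06 without in ES cells (SD, n = 3 each). It fell by 2.24 (SE 0.11, adjusted p = 2.2e-06, limma). The other large falls there were those of Ak1, an adenylate kinase gene (-2.82 ± 0.18, possibly understated, since it was dim with EBIO at 4.18), Ech1, a peroxisomal and mitochondrial isomerase gene (-2.54 ± 0.16), and Klf15, a regulator of heart and muscle metabolism (-2.37 ± 0.31). Nrip1, a corepressor of nuclear receptors, rose by 1.62 ± 0.19. In differentiated cells Gatm, which makes the precursor of creatine, fell by 4.15, to 3.78 ± 0.03 with EBIO, against 7.94 ± 0.46 without (SD, n = 2 each), and this may be understated, since it was dim with EBIO. Of the creatine and adenylate genes 1 of 6 rose and 4 fell there (16.7% and 66.7%), beside 33.3% and 32.6% of all genes tested.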
